A study of Mus musculus with 8 samples.

Results

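Immunoglobulin heavy chain (Igh) accessibility was followed at 181 ATAC-seq peaks, all of those lying fully inside chr12:114450000-117260000 of the mouse build mm9, out of 126871 peaks in the deposited table. The locus was selected on earlier results of these same libraries, in which many neighbouring peaks here were lower in old cells, so the differences between old and young below are a description and give no independent support. Hematopoietic stem cells (HSCs) had been sorted from bone marrow of C57BL/6 mice as LSK CD150+ CD48- cells (lineage-negative marrow cells that carry Sca-1 and Kit, gated on a pair of SLAM-family receptors). There were 4 libraries from old and 4 from young animals, named only as old and young, with no age or sex, no allele or treatment, and no statement that replicates came from separate mice. The p-values therefore measure the spread between libraries, which may be technical, and age cannot be told apart from anything else that differed between the groups. Total counts per library were 4200905 to 5129684, of which 2159 to 4232 lay in the Igh locus. Old replicate 4 was the exception among old libraries over the whole table, where its counts differed from those of old replicates 1 to 3 by a chi-square per peak of 1.83 to 2.17, against 1.16 to 1.22 among those 3. Pairs of young libraries lay between, at 1.36 to 1.66. In the Igh locus old replicate 4 was again the exception: 0.0632% of its counts lay in the locus, against 0.0514% to 0.0534% in old replicates 1 to 3 and 0.0828% to 0.0915% among young libraries.

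The Igh locus encodes the heavy chain of antibodies. In developing B cells the Rag1 and Rag2 recombinase joins 1 of many variable (V) segments to a diversity (D) and a joining (J) segment, upstream of a row of constant-region genes, while in stem cells the locus is known to lie unrearranged. An enhancer between the J segments and Ighm and a regulatory region beyond Igha act on the constant end in B cells, and the distal V segments are brought to the D and J segments by contraction of the locus. ATAC-seq inserts adapters into open chromatin, so a peak's read count follows how open it is. In sorted bulk cells, fewer cells with an open site and less opening in each cell cannot be told apart.

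No annotation or sequence of mm9 was used, so peaks were not matched to single segments and no peak sequence is shown. The gene order in RefSeq's table for a later build (GRCm38.p6) serves as a guide to what the locus holds. From low to high coordinates it lists Tmem121, then 8 constant-region genes from Igha to Ighm, 4 J segments, 10 D segments with 10 D pseudogenes, the sperm-protein genes Adam6b (among the last D segments) and Adam6a, and 121 V segments with 63 V pseudogenes, and ends at the zinc finger gene Zfp386. Of the 50 V segments before Ighv1-4, 19 belonged to the Ighv2 and Ighv5 families. Of the 71 from Ighv1-4 on, 69 belonged to Ighv1 and Ighv8. The peaks were divided into a constant end below position 114750000 (21 peaks) and a variable end above it (160 peaks), and into 14 bins of 200 kb counted from the lower edge.

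Igh peaks were denser than those of the rest of chromosome 12 but weaker and narrower than the usual peak. There were 64.4 peaks per Mb in the locus and 45.9 per Mb elsewhere on the chromosome. Accessibility was expressed as CPM (counts scaled to a common library size), computed from the counts with edgeR's TMM scaling. The median Igh peak had 1.88 CPM over the 8 libraries and was 326 bases wide, where the median of all peaks was 2.76 CPM and 407 bases. Only 24 Igh peaks (13.3%) had a mean of 10 CPM or more, against 20.7% of all peaks. A count filter applied to the whole table kept 82 Igh peaks (45.3%) for testing, against 57.7% of all peaks, and 99 Igh peaks fell below it.

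Openness was uneven along the locus in young and in old libraries, but the order of the bins was not the same in both. In young libraries bin 1, at the constant end, held 102 ± 6.46 CPM in 14 peaks (SD, n = 4) and bin 2 held 48.7 ± 9.48 CPM in 11 peaks. Bins 3 to 6, over the lower part of the variable end, held few open peaks: 22 of their 25 peaks had a young mean under 2 CPM. Bins 3 to 6 summed to 4.93 ± 1.21, 23.3 ± 4.09, 4.49 ± 1.58 and 30.3 ± 6.04 CPM among young libraries. Of the 63.0 CPM that the 25 peaks summed to among young libraries, 26.4 came from a single wide peak, chr12:115616506-115617913. Accessibility returned in bin 7 (92.8 ± 16.3 CPM), was low in bins 8 and 9 (26.9 ± 7.83 and 25.1 ± 1.59 CPM), and was 96.0 to 134 CPM in each of bins 10 to 14 at the far end, a range that takes in the level of bin 1. In old libraries bin 2 (24.2 CPM) lay below bins 4 and 6 (26.9 and 32.5 CPM), and so did bins 8 and 9 (13.8 and 15.5 CPM). Among young libraries bin 2 lay above bins 4 and 6. The largest stretch without any peak was 128000 bases.

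**Figure D1:**
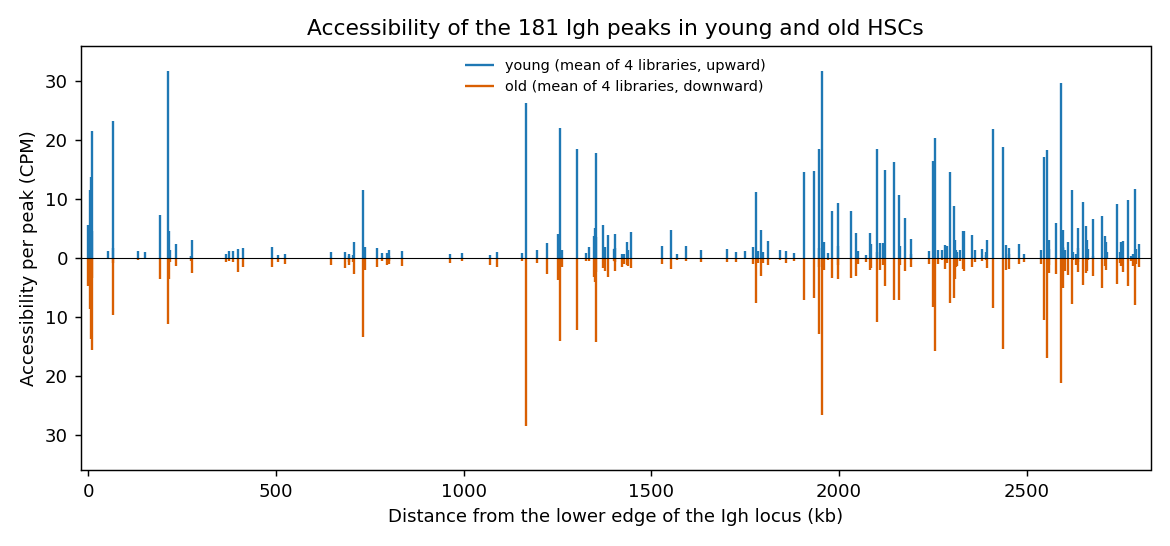
Mean accessibility in CPM of each of the 181 Igh peaks against distance in kb from the lower edge of the locus, with young means drawn upward and old means downward (4 libraries each). Peaks cluster at the constant end and over the far variable end, the part between has few open peaks, the strongest at 1167.2 kb, and most old bars are shorter than their young counterparts.

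The Igh locus as a whole was less open in old HSCs. Summed over all 181 peaks, old replicates 1 to 4 had 550, 569, 573 and 670 CPM, and young replicates 1 to 4 had 962, 874, 876 and 912 CPM. The groups did not overlap, and old replicate 4 lay closest to the young libraries. The means were 590 ± 54.1 CPM in old and 906 ± 41.4 CPM among young libraries (SD over 4 libraries each), so that old stood at 65.2% of young. Summed accessibility over the rest of chromosome 12 was 102.9% of young in old libraries. The groups did not overlap there either, with every old library above every young one. Of the 181 Igh peaks 145 (80.1%) had the lower mean in old libraries, against 52.5% of all peaks in the table.

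Single peaks were tested in edgeR's quasi-likelihood fit over the whole table, with Benjamini-Hochberg adjustment over all tested peaks and a call at an adjusted p below 0.05. Of the 82 tested Igh peaks 37 were called lower in old and 0 higher, where 10.4% of all tested peaks were called lower and 10% higher. At an unadjusted p below 0.05 in edgeR the counts were 47 lower and 0 higher. The share of all tested peaks at that cut was not computed, so nothing is read from these counts. DESeq2's test called 30 lower and 0 higher, against 7.13% and 6.83% of all peaks by that test. Because the locus was picked for this contrast, nothing is read from these shares. All 4 old libraries lay below all 4 young ones at 34 tested Igh peaks (41.5%) and above them at 0, against 10.6% of all tested peaks below. The fitted log2 fold change, old minus young, was below 0 at 76 tested Igh peaks and above 0 at 6, with a median of -0.58 against 0.01 over all tested peaks. Called peaks ranged from -1.78 to -0.45, and 25 of the 37 were below -1. Their median was -1.09, near the -0.98 of all peaks in the table called lower.

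The 99 peaks under the count filter differed in the same direction. They summed to 85.0, 83.1, 92.5 and 98.2 CPM in old replicates 1 to 4 and to 134, 122, 120 and 131 CPM in young replicates 1 to 4, again without overlap. Sums over all peaks below the filter did not overlap either. Those were 56653 to 59972 CPM in old and 61871 to 65215 CPM among young libraries, so the separation is not particular to Igh. Old libraries stood at 70.6% of young over these weak peaks, against 91.7% over all peaks of the table that fell below the filter. Of the 99, 69 (69.7%) had the lower mean in old, against 57.4% of all such peaks. The weakest of them in old cells, chr12:116902736-116903039, had no count in any old library and 11 counts in the young libraries together.

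**Figure D2:**
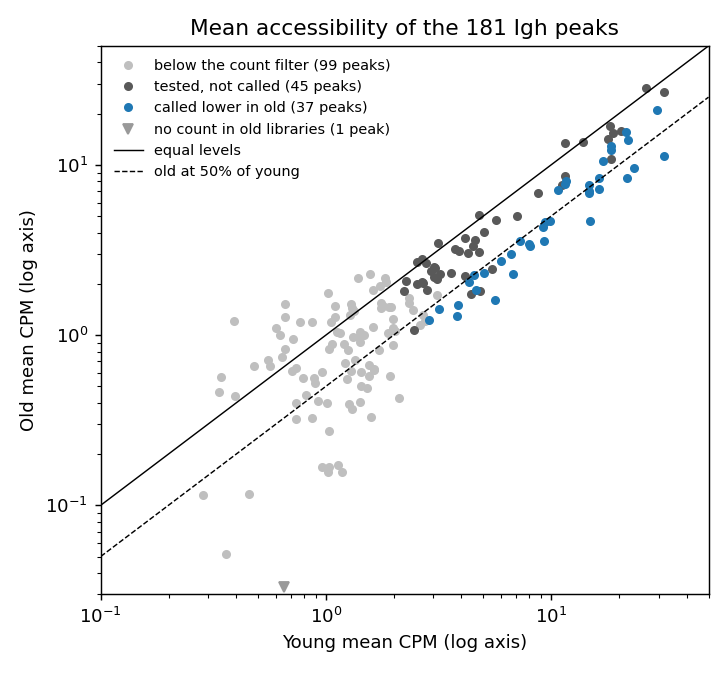
Mean CPM in old against mean CPM among young libraries for the 181 Igh peaks, both on log axes, with peaks below the count filter, tested peaks and peaks called lower marked, and lines for equal levels and for old at 50% of young. Most of the 82 tested peaks lie below the line of equal levels, and the 37 called peaks span young levels from 2.88 to 31.8 CPM.

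Along the locus, old cells were lower at both ends, and no bin was called in between. The same test on counts summed in 200 kb bins over the genome called 10 of the 14 Igh bins lower and 0 higher, where 15.2% of all 9827 tested bins were called lower and 15.8% higher. Bins 1 and 2 and bins 7 to 14 were the ones called. Bins 7 to 14 formed an unbroken run of 8 lower bins, and the next longest runs on the same grid, on chromosomes 14 and 7, held 6. The length of the Igh run rests on bins 7 and 8, whose calls were lost when single libraries were left out, and without both it would be the 6 bins from 9 to 14. Because the locus was picked for this contrast and the grid starts at its lower edge, nothing is read from this ranking. Bins 3 to 6 had log2 fold changes of -0.13 ± 0.27, 0.16 ± 0.14, -0.21 ± 0.32 and 0.05 ± 0.14 (SE), none of them called.

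In the called bins, old stood at 49.7% (bin 2) to 70.8% (bin 7) of young. Bin 2 fell from 48.7 to 24.2 CPM, a log2 fold change of -1.06 ± 0.14 (SE), with an edgeR adjusted p of 7.27e-05, and 66 of the 9827 bins had a more negative one. Most of that fall lay in 1 peak, chr12:114662482-114663732, which went from 31.8 to 11.3 CPM and was the only one called of 3 tested in the bin. Bin 11 fell from 99.8 ± 10.6 to 50.1 ± 10.7 CPM (-1.03 ± 0.13). Bin 10 fell from 111 ± 9.02 to 68.4 ± 3.93 CPM and bin 12 from 96.0 ± 5.44 to 59.5 ± 5.19 CPM (SD over 4 libraries each). In bins 1, 2 and 9 to 14 every old library lay below every young one, while bins 7 and 8 overlapped. The share of all tested bins set apart in this way is not given here, so nothing is read from that number. Bins 7 and 8 were also the weakest calls. Without old replicate 1, 2 or 3 or young replicate 4 neither was called, with adjusted p of 0.0623 to 0.0714 for bin 7 and 0.0600 to 0.0897 for bin 8, and bin 8 was also lost without young replicate 1 (adjusted p = 0.0608, edgeR).

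**Figure D3:**
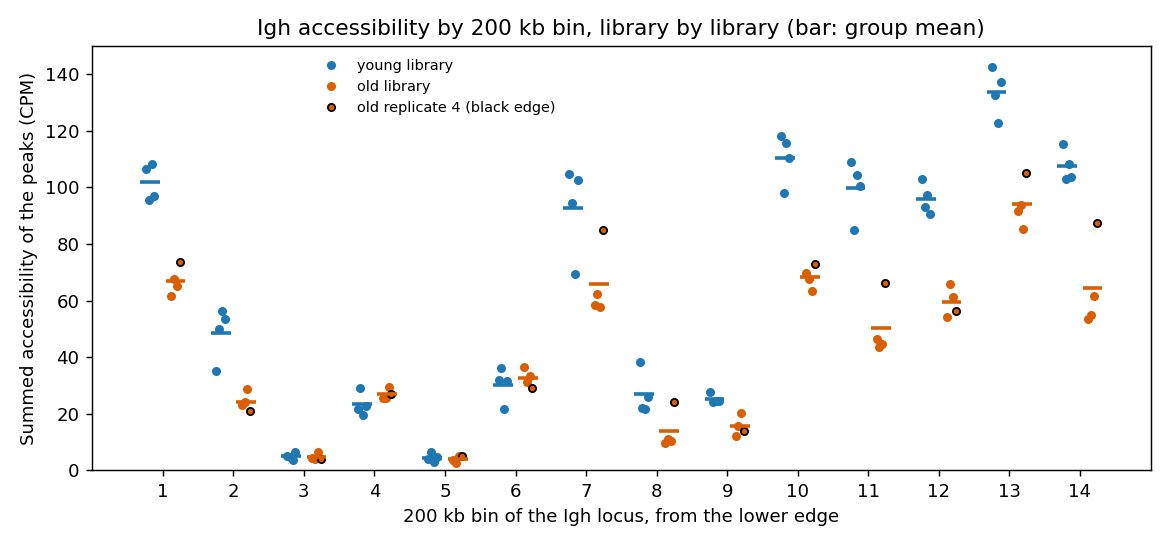
Summed CPM of the Igh peaks in each of the 14 bins of 200 kb, with a point for each of the 4 young and 4 old libraries, bars at the group means and old replicate 4 outlined in black. Old points lie below young points in bins 1, 2 and 9 to 14 and among them in bins 3 to 6. Old replicate 4 is the highest old library in bins 1, 7, 8, 10, 11, 13 and 14.

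Old replicate 4 did not stand apart evenly over the locus. It was at 234% of the mean of the other 3 old libraries in bin 8, 154% in bin 14, 148% in bin 11 and 143% in bin 7. It was at 133% of that mean in bin 5, 116% in bin 13, 114% in bin 1, 109% in bin 10 and 101% in bin 4. In bins 2, 3, 6, 9 and 12 it was below the mean of the other 3, at 83.6%, 79.7%, 86.8%, 86.5% and 93.3%. Among the 37 called peaks it was the highest old library at 23. Without it the log2 ratio of old to young over the whole locus was -0.68 in place of -0.62, and 43 Igh peaks were called lower, of which 35 were among the 37. The share of all tested peaks called lower also moved, from 10.4% to 15.5%. The part of this library in the other values was not tested beyond leaving it out.

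At the constant end 4 of 13 tested peaks were called lower, where 10.4% of all tested peaks were. Of all 21 peaks there, 20 had the lower mean in old. The sum was 79.2, 88.4, 89.3 and 91.4 CPM in old replicates 1 to 4 and 136, 143, 160 and 144 CPM in young replicates 1 to 4. Old stood at 59.7% of young, and here old replicate 4 lay with the other old libraries.

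The widest peak of the constant end, and the most open there in young libraries, was chr12:114662482-114663732. Old replicates 1 to 4 had 10.7, 10.3, 14.3 and 9.72 CPM, and young replicates 1 to 4 had 17.5, 37.2, 37.0 and 35.3 CPM. Every old library was below every young one, but young replicate 1 lay nearer to the old libraries than to the other young ones. The log2 fold change was -1.50 ± 0.23 (SE), with an edgeR adjusted p of 0.000646, and -1.70 without young replicate 1. Its nearest neighbour further along, chr12:114665590-114665885, had 3.63 ± 1.34 CPM in old and 4.61 ± 1.04 among young libraries and was not called.

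Closer to the lower edge, chr12:114515791-114516622 had 8.15, 7.57, 9.92 and 12.8 CPM in old replicates 1 to 4 and 24.3, 18.1, 26.8 and 23.9 CPM in young replicates 1 to 4. The groups were well apart, and the log2 fold change was -1.26 ± 0.17 (SE), with an edgeR adjusted p of 4.79e-05. Between these 2 peaks, chr12:114640928-114641471 fell from 7.26 ± 1.52 to 3.58 ± 0.944 CPM.

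The first 8 peaks of the locus, all at 0.8 to 11.1 kb from its lower edge, differed less. Its strongest member, chr12:114460236-114460922, had 13.7, 18.1, 12.9 and 17.6 CPM in old and 23.1, 22.9, 22.5 and 17.4 CPM in young replicates 1 to 4. Young replicate 4 fell inside the old range there. The log2 fold change was -0.45 ± 0.15 (SE), with an edgeR adjusted p of 0.0334, a call that was lost with DESeq2 (adjusted p = 0.0734) and without old replicate 1 or 3 or young replicate 1, 2 or 3. The next strongest, chr12:114458566-114459078, had 13.6 ± 1.47 CPM in old and 13.8 ± 0.898 among young libraries, a log2 fold change of -0.01 ± 0.15. Apart from chr12:114460236-114460922 none of these 8 peaks was called.

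The lower part of the variable end held the most open peak of the locus in old cells. This peak, chr12:115616506-115617913, was also the widest Igh peak at 1407 bases. It had 32.1, 27.8, 29.3 and 24.6 CPM in old and 28.2, 30.3, 19.0 and 28.0 CPM in young replicates 1 to 4. The groups overlapped, and the log2 fold change was 0.10 ± 0.13 (SE). A smaller peak, chr12:115181936-115182531, had 13.4 ± 1.19 CPM in old and 11.5 ± 1.04 among young libraries and was not called either (0.22 ± 0.16). With 3 of 25 peaks tested in bins 3 to 6, differences at the remaining peaks there were not detectable singly at this depth. As a sum these bins had 68.1 ± 4.99 CPM in old and 63.0 ± 11.9 among young libraries.

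Over the far variable end the difference was spread over many peaks rather than a few. In bins 7 to 14, 33 of 66 tested peaks were called lower, where 10.4% of all tested peaks were. These lay in bin 7 and in bins 10 to 14. None of the 3 tested peaks of bin 8 or the 2 of bin 9 was called. Of all 131 peaks there, 112 had the lower mean in old. The sum was 395, 415, 405 and 510 CPM in old replicates 1 to 4 and 758, 652, 664 and 696 CPM in young replicates 1 to 4. Old stood at 62.3% of young, without overlap.

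The peak with the smallest p in the locus was chr12:116573061-116573524. It had 4.07, 3.79, 4.15 and 6.62 CPM in old and 15.4, 13.3, 14.8 and 16.4 CPM in young replicates 1 to 4. Old replicate 4 was the highest old library and still below the lowest young one. The log2 fold change was -1.67 ± 0.20 (SE), with an edgeR adjusted p of 1.26e-05.

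Next by p came chr12:116860866-116861743, with 9.67, 6.94, 6.23 and 10.7 CPM in old and 22.9, 18.3, 22.5 and 23.7 CPM in young replicates 1 to 4. Its log2 fold change was -1.37 ± 0.17 (SE). All old libraries were again below all young ones.

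The largest fall was at chr12:115821577-115822038, from 5.63 ± 1.10 CPM in young to 1.61 ± 0.711 CPM in old libraries (SD over 4 libraries each), a log2 fold change of -1.78 ± 0.32 (SE) that rests on 100 and 29 counts in all. A comparable fall at chr12:116624668-116625202, from 6.74 ± 2.57 to 2.27 ± 0.832 CPM, went with a wide spread among young libraries, 9.56, 4.84, 8.25 and 4.31 CPM in replicates 1 to 4.

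In bin 10, 4 peaks named for their small p stood at 38.5% to 47.9% of young in old libraries. Of these, chr12:116357474-116358325 fell from 14.7 ± 2.98 to 7.03 ± 1.42 CPM, and chr12:116383482-116384204 fell from 14.7 ± 1.09 to 6.83 ± 1.99 CPM. The other two were weaker: chr12:116431623-116432286 fell from 8.04 ± 1.47 to 3.33 ± 0.592 CPM and chr12:116446137-116446677 from 9.30 ± 2.64 to 3.58 ± 0.555 CPM. At all 4 peaks the groups did not overlap. Further along, chr12:116699006-116699769 fell from 16.4 ± 2.43 to 8.34 ± 1.32 CPM, also without overlap.

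**Figure D4:**
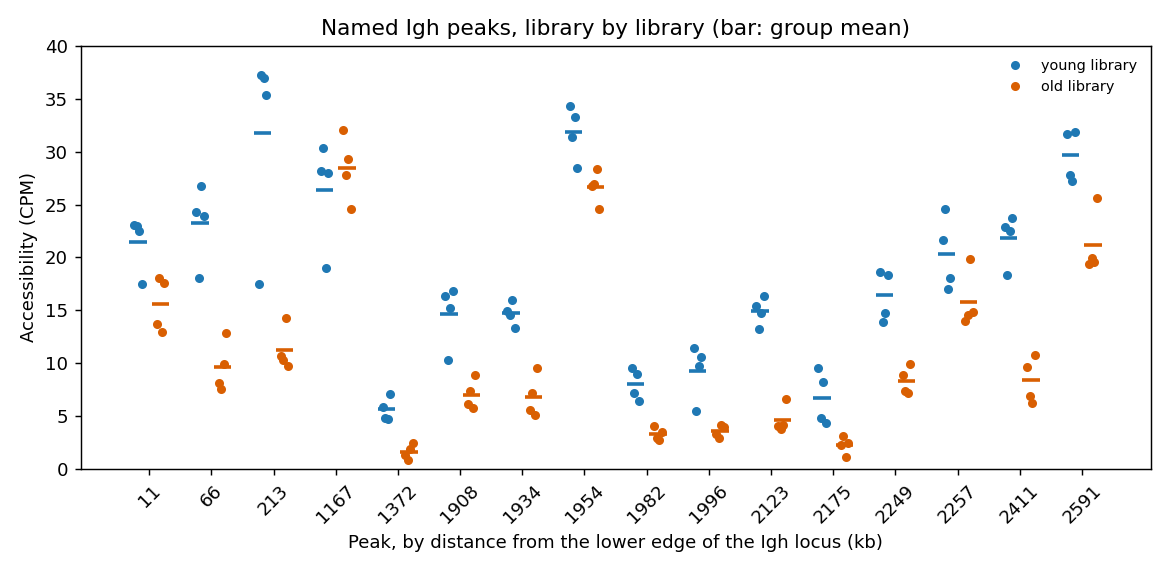
CPM of the Igh peaks named for their small p, large fall or high mean (those named for lying at an edge are not drawn) in each of the 4 young and 4 old libraries, ordered by distance in kb from the lower edge, with bars at the group means. Old and young points are apart at most of the peaks drawn, and overlap at those 10.6, 1167.2 and 2256.6 kb from the edge.

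Several of the strongest peaks of the far end were not called, in the midst of called neighbours. The strongest of them, chr12:116403591-116404584, had 26.7, 26.9, 28.4 and 24.6 CPM in old and 34.3, 31.4, 33.3 and 28.4 CPM in young replicates 1 to 4. Although no old library reached a young one, it was not called (log2 fold change -0.25 ± 0.10, SE; edgeR adjusted p = 0.0843), and it passed under loess scaling (adjusted p = 0.0476) and when only peaks averaging 50 or more counts were kept (adjusted p = 0.0395). It lies 1954.1 kb from the lower edge, and the called peak chr12:116383482-116384204, at 46.5% of young, lies at 1933.8 kb. Another strong peak, chr12:116706093-116707140, had 15.8 ± 2.71 CPM in old and 20.4 ± 3.48 among young libraries and overlapped between groups. It lies at 2256.6 kb, and the called peak chr12:116699006-116699769 at 2249.4 kb. Of all tested peaks with a young mean of 10 to 20 CPM and of 20 CPM or more, 15.8% and 10.6% were called lower. Of 22 tested peaks in bins 7 to 14 with a young mean of 10 CPM or more, 15 were called lower and 7 were not. Of these 7, chr12:117003110-117004010, singled out after its values were seen, was the closest to equal, with 17.0 ± 1.13 CPM in old and 18.3 ± 2.11 among young libraries.

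Toward the upper edge, chr12:117040516-117041416 was the strongest called peak of the variable end. It had 19.3, 19.98, 19.6 and 25.6 CPM in old and 31.7, 27.8, 27.3 and 31.9 CPM in young replicates 1 to 4, so that old replicate 4 approached the lowest young library without reaching it. The log2 fold change was -0.48 ± 0.12 (SE).

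The size of the difference varied with the level in young cells, but in no single direction. The median log2 fold change of tested Igh peaks was -0.45 at a young mean below 5 CPM, -1.11 at 5 to 10, -0.58 at 10 to 20 and -0.48 at 20 CPM or more. Over all tested peaks the medians at these levels were 0.07, -0.09, -0.04 and 0.04. Below 5 CPM 7 of 36 were called lower, and at 5 to 10 CPM 12 of 17. At 10 to 20 CPM 12 of 20 were called lower, and at 20 CPM or more 6 of 9. Of all tested peaks at those levels, in the same order, 6.05%, 13.8%, 15.8% and 10.6% were. Levels were taken from the young libraries, which are part of the contrast, and a weak peak could pass the count filter through the young group alone, so these values are a description. Across the 82 tested peaks the Spearman correlation with log2 fold change was -0.02 for mean CPM and -0.09 for width, over peaks that share the same 8 libraries.

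Outside the locus the sums of old and young libraries were close. Within 500 kb below the lower edge, 71 peaks were tested and 6 were called lower and 4 higher, with a median log2 fold change of -0.11. Within 500 kb above the upper edge, 13 were tested, 0 were lower and 1 was higher, with a median of -0.07. Over all tested peaks 10.4% were called lower and 10% higher. Summed over each flank, old stood at 97.4% and 100.1% of young, and the groups overlapped in both. Old had the lower mean at 62.8% of peaks in the lower flank and 58.8% in the upper one, against 52.5% of all peaks. Among the 6 called lower, chr12:114305849-114306623 fell from 5.73 ± 1.07 to 0.825 ± 0.469 CPM. Its log2 fold change of -2.73 ± 0.37 (SE) was more negative than that of any tested Igh peak. Just inside the lower edge, chr12:114450583-114451027 had 4.74 ± 1.33 CPM in old and 5.67 ± 0.959 among young libraries, and chr12:114453198-114453469 had 2.19 ± 1.26 and 3.02 ± 1.07. Just outside it, chr12:114443604-114444103 had 2.89 ± 1.01 and 3.003 ± 0.188 CPM, and chr12:114425630-114426412 had 23.2 ± 2.41 and 22.5 ± 1.11. The last peaks inside the upper edge, chr12:117241220-117241426 and chr12:117248947-117249411, had 0.998 ± 0.530 and 1.54 ± 0.365 CPM in old and 1.47 ± 0.641 and 2.33 ± 0.720 among young libraries. The nearest outside, chr12:117266368-117266654 and chr12:117285476-117286460, had 1.17 ± 0.849 and 41.9 ± 3.44 CPM in old and 0.705 ± 0.603 and 43.8 ± 4.02 among young libraries.

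**Figure D5:**
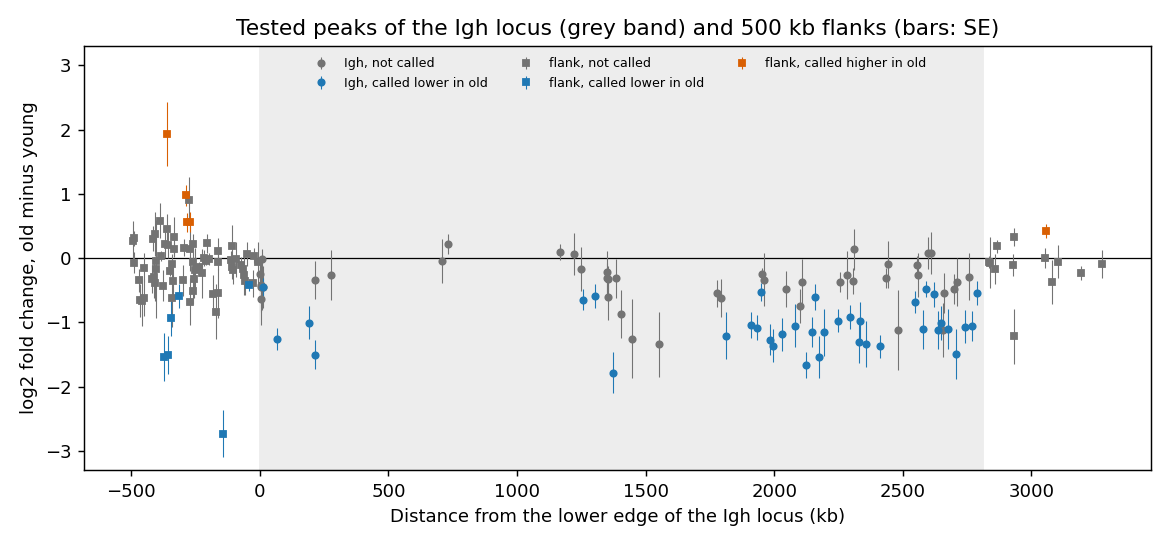
Log2 fold change, old minus young, with its SE for each tested peak of the Igh locus (grey band, circles) and of 500 kb on either side (squares), against distance in kb from the lower edge, with called peaks coloured. The 37 called Igh peaks all lie below 0, at the constant end, from 1257.3 to 1371.8 kb and from 1812.1 kb on. The flanks scatter around 0 with 6 peaks called lower and 5 higher.

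Some bins elsewhere in the genome followed the variable end closely from library to library. Among 2889 bins of 200 kb on other chromosomes with at least 10 tested peaks, the highest Pearson correlation over the 8 libraries with the log2 sum of the variable end was 0.989, on chromosome 6 from 72050001 to 72250000. There the level was 288 ± 5.67 CPM in old and 319 ± 7.12 among young libraries. The others were on chromosome 11 from 79250001 to 79450000 (r = 0.986, 100.3 ± 8.44 and 148 ± 5.82 CPM) and on chromosome 3 from 89250001 to 89450000 (r = 0.984, 102 ± 6.91 and 130 ± 7.0 CPM). These bins were the highest of many, the libraries fall into 2 groups and share their depth and scaling, so the correlations are given without a p.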

How the data were processed

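The labels name 8 ATAC-seq libraries of sorted mouse HSCs, made with the Omni-ATAC protocol and a Nextera kit. The deposited table holds raw read counts per peak, over 1 peak set shared by all libraries. Per the submitters' processing notes, which give no versions, the tools were Bowtie2, MACS2, Picard, SAMtools, FastQC and Trim Galore, and the build was mm9. The sources used here do not give how peaks were merged, how reads were counted or whether read ends were shifted. Peaks called on the compared libraries can favour sites open in either group, and how reads mapping to several similar V segments were treated is also not given.

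Columns were mapped to samples by title. Peaks were kept with edgeR's filterByExpr at a minimum count of 10 and a minimum total of 15, and the 73164 kept peaks hold 94.2% of counts. CPM were computed from the deposited counts over the kept library sizes with TMM scaling. The comparison of old with young used edgeR's quasi-likelihood test (version 4.0.16, robust; R 4.3.3) and a model holding group alone, with Benjamini-Hochberg adjustment. SE is the fold change divided by the root of the test's F. Bins of 200 kb, assigned by peak midpoint, were fitted alike over the genome. The fits were checked on simulated counts. No 2 replicates were as close as sampling noise alone would make them (lowest chi-square per peak 1.16). Alternatives used DESeq2 1.42.0 and limma 3.58.1.

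Named peaks are the 10 called lower with the smallest p, up to 5 called higher (there were 0), the 6 with the highest mean CPM, the 3 largest falls and the 2 nearest each edge on either side. Other peaks given by coordinates were chosen after their values were seen. The locus, lists and rules were chosen with earlier results of these data known. Planned gene lists, cell type markers and motifs need mm9 annotation or sequence and were not analysed here.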

Additional observations from a re-analysis of the deposited data

Results flagged for a closer look

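Of 82 groups of 4 libraries screened at the values reported for the Igh locus, 11 held a library far from the other 3, where chance flags about 1 in 20 groups, and 6 of these were old replicate 4. The values share peaks, so they are not 11 separate events.

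Old replicate 4 stood above the other old libraries in the sum over the variable end (579 CPM, the others 470 to 483). It did so in bin 7 (84.8 CPM against 57.7 to 62.3), bin 8 (24.2 against 9.67 to 10.9) and bin 11 (66.2 against 43.5 to 46.3). At single peaks it was high at chr12:116573061-116573524 (6.62 CPM against 3.79 to 4.15) and at chr12:117040516-117041416 (25.6 against 19.3 to 19.98). Old replicate 3 was high in bin 3 (6.46 CPM against 3.93 to 4.33) and at chr12:116706093-116707140 (19.8 against 14 to 14.9).

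Among young libraries, replicate 1 was low at chr12:114662482-114663732 (17.5 CPM against 35.3 to 37.2) and high in bin 9 (27.5 against 24.2 to 24.5). Young replicate 4 was low at chr12:114460236-114460922 (17.4 CPM against 22.5 to 23.1).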

How the results depend on the processing

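The number of Igh peaks called lower was 30 to 43 under DESeq2 size factors, total counts, loess offsets, no count filter, DESeq2's test, limma voom and the replicate block, against 37, and 27 to 43 with each library left out in turn. It was 12 of 20 tested with a mean count of at least 50, where 11.7% of all tested peaks were called lower. At an adjusted p below 0.01 it was 23, where 5.03% of all were. The share of all tested peaks called lower was 7.69% with no count filter, 7.13% with DESeq2's test and 11.3% with total counts, against 10.4%. The number called higher was 0 under all of these. Called bins numbered 8 to 10 with each library left out, 9 on the grid shifted by 100 kb, and 17 of 25 tested with bins of 100 kb. In the main fit 15.2% of all tested bins were called lower. The shares of all bins under these alternatives are not given here, so nothing is read from these counts of bins. The log2 ratio of old to young was -0.68 to -0.58 for the whole locus with each library left out, -0.77 to -0.70 for the constant end and -0.67 to -0.55 for the variable end.

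Direction turned only at values that were not called. With each library left out, log2 fold changes ran from -0.027 (without young replicate 3) to 0.17 at the peak chr12:115616506-115617913, from -0.32 to 0.028 (without young replicate 4) in bin 3, from -0.38 to 0.020 (without young replicate 2) in bin 5 and from -0.082 (without young replicate 3) to 0.14 in bin 6, which also turned without old replicate 1 (-0.01). Bin 8 was not called when only peaks past the filter were summed (adjusted p = 0.0787, edgeR). The cause was not tested.

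Libraries of the same number in the 2 groups had correlations of -0.01, 0.07, 0.05 and 0.18 in their deviations from the group means, so the numbers were not taken as pairs. With the replicate block 40 Igh peaks and 10 bins were called lower. Shares of all peaks and all bins called under that block are not given here, so nothing is read from these counts. Weak peaks limit what single tests show, since 99 of the 181 peaks were below the filter.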
